A study of Mus musculus with 4 samples.

Results

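In each of 2 RNA-seq tables of mouse embryonic stem cells, the loci whose gene symbol field held only a dash were taken as transcribed loci without a gene symbol, here called unnamed loci. Set 1 held 3939 of them among 16553 loci and set 2 held 3866 among 16967, or 23.8% and 22.8% of all rows. The remaining rows were named single-gene loci with a symbol found once in the table (12311 and 12767), symbols found more than once (156 and 190) and loci merging several genes (147 and 144). The rule used only the symbol field, and no level or ratio entered it. It was chosen with earlier results of these data known. The tables also held only loci above a lowest deposited level in both libraries, given with the processing below. The part of that limit in the levels and ratios below was not tested.

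The cells were Rosa26CreER mouse embryonic stem cells, cultured pluripotent cells of the early embryo, in which a tamoxifen-activated Cre recombinase is expressed from the Rosa26 locus. All 4 libraries came from Chd1fl/- cells, which carry 1 floxed and 1 null allele of Chd1, which encodes a remodeling enzyme that moves nucleosomes in transcribed chromatin. Control cells received ethanol and therefore kept 1 functional allele. Chd1-null cells received 1 µM tamoxifen for 48 to 72 h, and both were then grown for 3 to 5 passages in serum with LIF, without tamoxifen. With 1 library of either kind in each set, n was 2 for controls and 2 for Chd1-null cells. The labels name 2 derived lines without tying a set to a line in words. RNA of equal cell numbers was mixed with 92 synthetic ERCC transcripts, depleted of ribosomal RNA and made into strand-specific libraries. In such bulk samples, fewer cells of a type and less RNA per cell cannot be told apart.

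A locus built from reads can lie outside annotated genes for several reasons. Embryonic stem cells are known to transcribe enhancers, promoters in the antisense direction, retroviral repeats and long noncoding RNAs, many of them as short, unspliced or poorly polyadenylated RNAs. Depletion of ribosomal RNA, unlike selection of poly(A) tails, keeps abundant small structural RNAs of the splicing and elongation machinery in the library. The tables give neither position, strand nor length of a locus, so no unnamed locus is assigned here to any of these classes, and no sequence is given.

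Chd1 itself stood at 27.6 and 17.9 FPKM in the controls of sets 1 and 2 and at 5.71 and 8.52 in the Chd1-null libraries, ratios of 0.207 and 0.477. Chd1 RNA was thus still listed in both libraries labelled Chd1-null, most in set 2, and the name is used here as the labels give it. FPKM, a fragment count scaled by transcript length and by sequencing depth, is the unit inferred for the deposited values, and the fragment numbers behind them are unknown. Summed FPKM was 584520 and 719549 in the controls against 466994 and 518032 in the Chd1-null libraries. All 9 markers of embryonic stem cells were listed in both sets, with sums of 2734 and 3448 FPKM in the controls and 2007 and 1915 in the Chd1-null libraries. The 4 neural markers summed to 37.5 and 25.2 FPKM in the controls and 17.2 and 16.1 in the Chd1-null libraries. Of 5 fibroblast markers, 4 and 5 were listed, with sums of 2.41 and 5.54 FPKM against 2.34 and 4.04. Of 4 endoderm markers, 1 and 2 were listed, with sums of 0.357 and 1.39 FPKM against 0.116 and 0.954. The part of these differences in the results below was not tested.

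Unnamed loci were mostly of low level, but a few had some of the highest FPKM values of the libraries. The lengths and fragments behind these values are unknown, so their abundance as RNA copies was not established. The median of unnamed loci was 2.58 and 3.23 FPKM in the controls and 1.64 and 2.46 in the Chd1-null libraries of sets 1 and 2. Named single-gene loci had medians of 7.51 and 6.77 FPKM in the controls and 5.10 and 5.40 in Chd1-null cells. The unnamed median was thus 0.344 and 0.320 of the named one in set 1 and 0.477 and 0.455 in set 2, below it in every library. Neat1, a long noncoding RNA that scaffolds nuclear paraspeckles, stood at 3.21 FPKM in control 2, close to the unnamed median there, with 50.2% of unnamed loci above it. In control 1 it stood at 6.37 FPKM, above the unnamed median, with 18.2% of unnamed loci above it. At least 1 FPKM was reached by 89.4% and 84.9% of unnamed loci in the controls and by 67.0% and 86.2% in the Chd1-null libraries. Of named loci, 86.0% and 82.5% reached it in the controls and 77.5% and 80.5% in the Chd1-null libraries. The share was lowest in the Chd1-null library of set 1 for both classes.

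**Figure D1:**
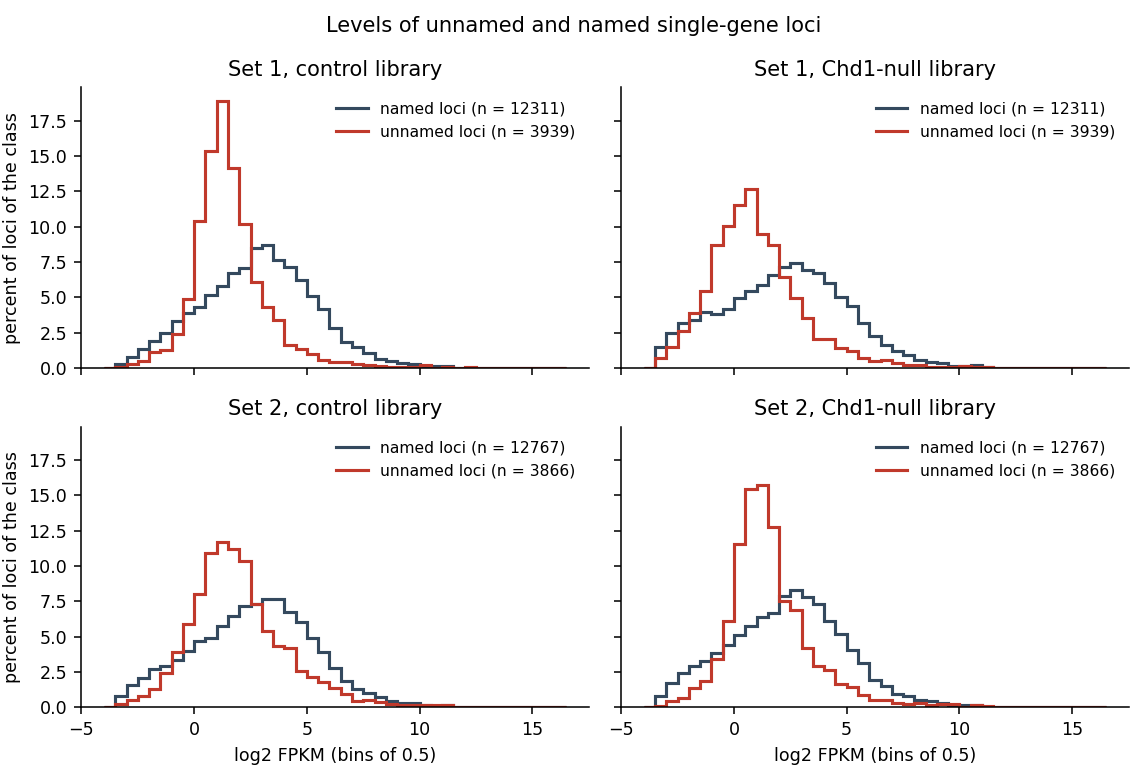
Distribution of levels in each of the 4 libraries, with log2 FPKM in bins of 0.5 on the horizontal axis and the percent of loci of the class on the vertical axis, for unnamed loci (red) and named single-gene loci (dark). The unnamed loci form a narrower peak at lower level, with medians of 1.64 to 3.23 FPKM against 5.10 to 7.51 FPKM, and a thin tail toward high levels.

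The distribution of unnamed loci was narrower than that of named loci at its centre. In control 1 the quartiles were 1.58 and 4.80 FPKM for unnamed loci against 2.19 and 22.4 FPKM for named ones. In control 2 they were 1.51 and 8.18 FPKM against 1.74 and 21.6 FPKM. At least 100 FPKM was reached by 59 and 124 unnamed loci in the controls of sets 1 and 2 (1.50% and 3.21%). Of named loci, 5.98% and 5.86% reached it. In the Chd1-null libraries 68 and 84 unnamed loci did (1.73% and 2.17%), against 5.13% and 4.46% of named ones. Among all loci, 810 and 882 reached it in the controls and 711 and 659 in the Chd1-null libraries. Nanog, a transcription factor of the pluripotent state, stood at 100.5 FPKM in control 1 and 73.9 in control 2, with 59 and 163 unnamed loci above it. Above Pou5f1, the core pluripotency factor at 599 and 541 FPKM, lay 21 and 38 unnamed loci. Above Actb, the cytoskeletal actin at 1796 and 1405 FPKM, lay 9 and 20.

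At the top of the range the share of unnamed loci was near their share of all rows. Of the 79 loci with at least 1000 FPKM in control 1, 17 were unnamed (21.5%). Of 95 in control 2, 27 were unnamed (28.4%). In the Chd1-null libraries 13 of 66 (19.7%) and 13 of 61 (21.3%) were.

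These few loci carried most of the unnamed signal. Unnamed loci held 18.4% and 30.5% of the summed FPKM in the controls of sets 1 and 2, and 17.4% and 29.3% in the Chd1-null libraries. The mean share was 24.4% ± 8.59 (SD, n = 2) in controls and 23.3% ± 8.42 in Chd1-null libraries, and within a set it was lower in Chd1-null by 0.993 and 1.24 percentage points, less than the gap between the sets. With 2 libraries against 2, an exact two-sided permutation test cannot go below p = 0.333, so none is given. The highest locus alone held 35.0% of the unnamed sum in control 1 and 29.2% in control 2, and the 10 highest held 62.7% and 61.0%. Without the 10 highest of each library, the shares were 7.74% and 8.56% in set 1 (control, then Chd1-null) and 14.6% and 11.9% in set 2. The share was then higher in Chd1-null in set 1 and lower in set 2.

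The identifiers made it possible to place unnamed loci beside named ones. Of consecutive named loci matched to GENCODE M21 (11685 in set 1 and 12129 in set 2), 99.0% and 99.1% shared chromosome and strand with the one before. Among those, position increased in 99.8% in each set, in a mouse build other than the mm9 of the files, used for order alone. An unnamed locus is therefore described by the named loci before and after it in identifier order. This gives a neighbourhood and no identity.

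In both sets the highest unnamed locus was numbered between Fbxo9, an F-box subunit of ubiquitin ligases, and Dppa5a, an RNA-binding protein of pluripotent cells. Its values were 37558 and 64028 FPKM in the controls and 27032 and 37047 in the Chd1-null libraries. Each set was lower in Chd1-null (ratios of 0.720 and 0.579), and both Chd1-null values were below both control values. The next in set 1 lay between Sp4, a transcription factor, and 2810429I04Rik, with 5491 FPKM in the control library and 3637 in the other. The third lay between Pcsk1, a prohormone convertase, and the elongation factor Ell2, at 5271 and 2196 FPKM. The fourth, between H2-M3 and Glyatl3, stood at 4469 and 2529 FPKM, and the fifth, between Smpd3 and Chtf8, at 3585 and 1960 FPKM. All 5 were lower in Chd1-null 1, with ratios from 0.417 to 0.720.

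In set 2 the next highest lay between Ptplad1 and Kbtbd13, with 25753 FPKM in the control library and 20082 in the other. The third, between Gemin2, a subunit of the SMN complex, and Pnn, a splicing-associated protein, had 14822 FPKM in the control library and 20500 in the other. The fourth, between Tmem106a and Rdm1, stood at 8239 and 12122 FPKM. The fifth, between Serhl and Bik, stood at 5114 and 2400 FPKM. In set 2, then, 3 of the 5 were lower in Chd1-null and 2 were higher.

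The main comparison asked how the Chd1-null over control ratio of unnamed loci was distributed, against named loci of the same level. As a whole, unnamed loci were lower in Chd1-null cells, as named loci were, but far more of them departed from control by 2-fold or more in either direction. The median ratio of unnamed loci was 0.595 in set 1 (log2 ratio -0.75, quartiles -1.71 and 0.26) and 0.827 in set 2 (-0.27, quartiles -1.28 and 0.56). Of unnamed loci 70.9% in set 1 and 59.3% in set 2 were below control. Over all loci these shares were 82.7% and 72.9%, and among named single-gene loci 86.6% and 77.1%. Named single-gene loci had median ratios of 0.702 (-0.51, quartiles -0.96 and -0.19) and 0.801 (-0.32, quartiles -0.59 and -0.03). The mean of the 2 unnamed medians was a log2 ratio of -0.51 ± 0.34 (SD, n = 2). Centred on the median of named loci, it was -0.10, with values of opposite sign in the sets (-0.24 and 0.05).

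At least 2-fold lower in Chd1-null were 1677 unnamed loci (42.6%) in set 1 and 1136 (29.4%) in set 2. Over all loci of each table, unnamed ones included, these shares were 27.9% and 13.3%, and among named single-gene loci 23.3% and 8.41%. At least 2-fold higher were 642 unnamed loci (16.3%) in set 1 and 663 (17.1%) in set 2, against 4.64% and 6.41% over all loci and 0.877% and 3.10% of named ones. Past 4-fold lay 19.7% (lower) and 8.05% (higher) of unnamed loci in set 1, and 15.4% and 6.18% in set 2. Of named loci, 3.39% and 0.154% did so in set 1, and 1.25% and 0.446% in set 2. The balance of the 2 directions moved with scaling. Centred on the median of named loci, 29.6% of unnamed loci were at least 2-fold lower and 21.6% higher in set 1, and 24.2% and 22.4% in set 2. Scaled to library totals, the shares were 34.2% and 19.5% in set 1, and 22.2% and 25.7% in set 2, where more were then higher than lower. Each locus had 1 library per group and set, so no locus was tested and no call has a replicate check.

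**Figure D2:**
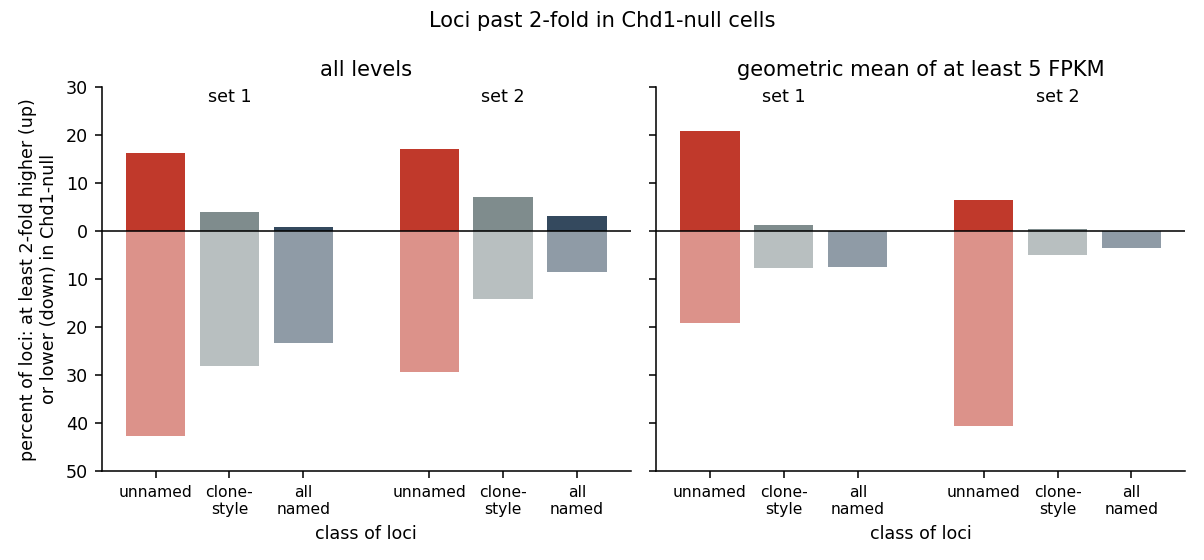
Percent of loci at least 2-fold higher (full colour, upward) or lower (pale, downward) in Chd1-null cells, for unnamed loci, loci with clone-style or predicted symbols and all named single-gene loci, in set 1 and set 2, at all levels (left) and from 5 FPKM (right). Unnamed loci have the highest bar of the 3 classes in both directions in each set.

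The next comparison was made at matched level. Loci were placed in bins of 1 log2 unit of the geometric mean of control and Chd1-null FPKM. In each bin with at least 20 loci of either class, unnamed loci were set against named ones, and the differences were averaged with the number of unnamed loci as weight. This used 3889 unnamed loci in 9 bins of set 1 and 3832 in 11 bins of set 2. The median log2 ratio of unnamed minus named loci was then -0.07 in set 1 and 0.06 in set 2, with a mean of -0.00 ± 0.09 (SD, n = 2). This average spans bins of opposite sign: their differences lay between -1.60 and 0.39 in set 1, and between -0.53 and 2.26 in set 2. The interquartile range of the log2 ratio was 1.72 for unnamed loci against 0.85 for named loci of the same level in set 1, and 1.81 against 0.72 in set 2. The difference was 0.87 and 1.08 (mean 0.98 ± 0.15, SD, n = 2), and unnamed loci had the wider range in all 9 and all 11 bins. An exact two-sided test that flips signs over 2 sets cannot go below p = 0.5, so none is given.

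Level-matched shares past 2-fold were higher for unnamed loci in both directions and both sets. In set 1, 42.9% of unnamed loci in the bins were at least 2-fold lower, against 36.8% for named loci of the same levels, and 16.4% were at least 2-fold higher, against 1.01%. In set 2 the lower shares were 29.4% and 10.1%, and the higher shares 17.2% and 2.82%. The excess of 2-fold higher loci was 15.4 percentage points in set 1 and 14.4 in set 2, and that of 2-fold lower loci was 6.02 and 19.3. The sets were further apart when low values were left out. From 5 FPKM the higher excess was 21.6 and 6.31 points and the lower excess 8.46 and 37.4. With at least 1 FPKM in both libraries they were 14.9 and 8.25 (higher) and 1.06 and 20.7 (lower).

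Within bins, the sets departed in opposite directions. In set 1, unnamed loci from 0.5 to 1 FPKM had a median log2 ratio of -1.82 against -1.07 for named loci, whereas from 16 to 32 FPKM they had 0.06 against -0.33. In set 2, those from 0.5 to 1 FPKM had 0.82 against -0.14, and those from 16 to 32 FPKM had -0.91 against -0.38. From 2 FPKM upward, the unnamed median lay above the named one in every bin of set 1 and below it in every bin of set 2.

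**Figure D3:**
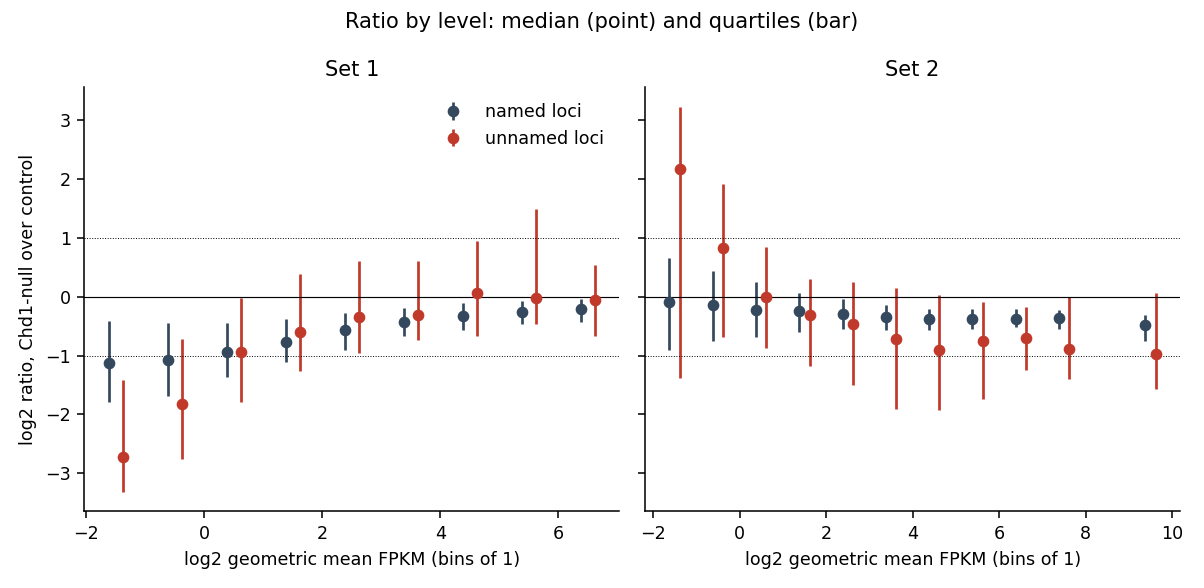
Log2 ratio of Chd1-null over control against the log2 geometric mean FPKM in bins of 1, for set 1 and set 2, with points for medians and bars for quartiles of unnamed loci (red) and named single-gene loci (dark). Dotted lines mark 2-fold. Unnamed bars are longer in every bin shown, and the unnamed medians cross the named ones in opposite directions in the sets.

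The same opposition stood out among the better expressed loci. From a geometric mean of 5 FPKM, 158 of 755 unnamed loci in set 1 (20.9%) were at least 2-fold higher in Chd1-null and 144 (19.1%) were at least 2-fold lower. In set 2, 71 of 1101 (6.45%) were higher and 447 (40.6%) were lower. Over all loci from that level, 2.18% were higher and 8.63% lower in set 1, and 0.994% and 8.50% in set 2. Named loci from that level stood at 0.104% higher and 7.53% lower in set 1, and at 0.102% and 3.39% in set 2. Unnamed loci thus exceeded both background shares in each set, with more of them upward than downward in set 1 and more downward in set 2. The tables do not give the fragments or length behind a value, and their part in this spread was not tested.

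The most extreme loci from 5 FPKM were these. In set 1 XLOC_007179, numbered between Zfp169 and Ptpdc1, stood at 2.60 FPKM in the control and 131 in the other library, a ratio of 50.3. XLOC_010944, between Rrp1b, a nucleolar protein, and Gm4432, stood at 43.2 FPKM in the control and 1.73 in the other library, a ratio of 0.0400. In set 2 XLOC_013469, between Tmem173, the innate immune adaptor STING, and Nrg2, stood at 2.55 and 45.8 FPKM, a ratio of 17.9. XLOC_028006, between Kxd1 and Ssbp4, stood at 45.8 and 1.19 FPKM, a ratio of 0.0259. Identifiers are numbered per set, so none of these values has a counterpart by identifier in the other set. By neighbours, only the locus between Kxd1 and Ssbp4 lay alone in both sets. In set 1 it stood at 4.15 FPKM in the control and 6.52 in the Chd1-null library, a log2 ratio of 0.65 and opposite in sign to set 2.

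Loci with clone-style or predicted symbols (Gm with a number, names ending in Rik, and BC, AK or AI with a number) were a named class of similarly low level. There were 705 in set 1 and 752 in set 2, with control medians of 2.17 and 2.11 FPKM. At matched level, unnamed loci had an interquartile range wider than theirs by 0.75 in set 1 and 0.97 in set 2. Shares at least 2-fold higher exceeded theirs by 12.9 and 13.9 percentage points, and shares at least 2-fold lower by 13.2 and 16.3 points. Clone-style loci in turn were wider than other named loci by 0.12 and 0.11. Loci whose symbol occurs more than once (156 and 190), with control medians of 2.38 and 2.52 FPKM, also spread widely. Not matched on level, their interquartile range was 1.30 and 1.23, against 1.97 and 1.84 for unnamed loci. Of these loci 35.3% and 19.5% were at least 2-fold lower and 10.9% and 13.2% at least 2-fold higher, so a wide spread in both directions was not particular to unnamed loci.

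Known noncoding RNAs with a symbol gave another yardstick. Of a list of 43, 23 were named in both sets, 15 (65.2%) were lower in Chd1-null in both and 0 were higher in both, near the 69.0% and 3.27% of all genes named in both sets. Their median log2 ratios were -0.89 in set 1 and -0.72 in set 2, against -0.51 and -0.32 for all named loci. At least 2-fold lower were 7 (30.4%) in set 1 and 8 (34.8%) in set 2, against 27.9% and 13.3% of all loci. Terc, Snhg1, Snhg6 and Dancr were so in both sets. Gas5, Rmrp, Malat1, Rian, Meg3 and Tug1, among others, were so in neither. At least 2-fold higher in either set were 0, against 4.64% and 6.41%. Most of the 23 stood above 5 FPKM in both sets. From a geometric mean of 5 FPKM, 8.63% and 8.50% of all loci were at least 2-fold lower, and 2.18% and 0.994% higher. Rmrp, the RNA of RNase MRP, stood at 6909 and 4649 FPKM in set 1 and at 10112 and 9239 in set 2 (control, then Chd1-null). Rpph1, the RNA of RNase P, stood at 6050 and 3716 FPKM in set 1 and at 12537 and 6066 in set 2. These 2 named RNAs were in the range of the highest unnamed loci. Malat1, a nuclear long noncoding RNA, stood at 300.0 and 194 FPKM in set 1 and 258 and 302 in set 2, lower in 1 set and higher in the other.

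A comparison between sets was possible only through neighbours. There were 356 unnamed loci that lay alone between the same named neighbours in both tables. Whether such a pair is 1 transcript is not established by the files. Their levels resembled each other across sets, with Pearson r = 0.811 and Spearman rho = 0.670 over 356 loci on the log2 geometric mean, against 0.966 and 0.968 over 11728 genes named in both sets. These points share libraries, and r is a description. The control values were within 2-fold of each other for 43.8% of these loci, against 84.3% of named genes. The log2 ratios of the sets were hardly related, with r = 0.03 and rho = 0.06, against -0.02 and -0.02 for named genes. Below control in both sets were 148 of these loci (41.6%), above it in both 55 (15.4%), and 153 (43.0%) went opposite ways. Of named genes, 69.0% were below in both, 3.27% above in both and 27.8% opposite.

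Each set by itself, 34.8% and 30.1% of these loci were at least 2-fold lower and 17.1% and 16.3% at least 2-fold higher, against 22.8% and 7.17% (lower) and 0.614% and 2.58% (higher) of the named genes. At least 2-fold lower in both sets were 44 (12.4%), against 2.91% of named genes, and at least 2-fold higher in both were 16 (4.49%), against 0.0682%. The shares past 2-fold in both sets thus stand beside larger shares in each set alone and a ratio correlation near 0. From 5 FPKM in both sets, 107 loci remained, of which 9 (8.41%) were at least 2-fold lower in both and 4 (3.74%) were higher. Of 6364 named genes from that level, 0.550% and 0.00% were. Of the 107, 98 had neighbours on 1 chromosome and strand in GENCODE, and all 9 and all 4 were among them. Taking each set by itself, 22.4% of the 98 were at least 2-fold lower in set 1 and 26.5% in set 2.

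The following loci were singled out after their values were seen. The locus between Pcsk1 and Ell2 stood at 5271 and 1283 FPKM in the controls and at 2196 and 529 in the Chd1-null libraries, with ratios of 0.417 and 0.413. The locus between Pik3c2a and Rps15a, a ribosomal protein of the small subunit, stood at 895 and 1353 FPKM in the controls and at 318 and 253 in the Chd1-null libraries. There both controls lay above both Chd1-null values. The locus between Rpl5, a ribosomal protein, and Mtf2, a Polycomb accessory factor, stood at 123 and 148 FPKM against 50.9 and 62.1, again without overlap. Between Decr1 and Osgin2 the values were 4.50 and 3.77 FPKM in controls and 25.9 and 65.3 in Chd1-null libraries. Between Mesp2 and Zfp710 they were 7.24 and 3.36 FPKM in controls against 30.6 and 10.9, so the lower Chd1-null value lay above both controls.

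Some other pairs with high FPKM, also picked after their values were seen, differed between the sets in level or in ratio. The locus between Gemin2 and Pnn had control values of 274 FPKM in set 1 and 14822 in set 2, with ratios of 1.19 and 1.38. Between Cpne8 and Kif21a the controls were 820 and 3092 FPKM and the ratios 0.733 and 0.0725. Between Dip2c and Heatr1, a nucleolar ribosome biogenesis factor, the controls were 1409 and 1142 FPKM and the ratios 0.948 and 2.03, so the sets went opposite ways.

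**Figure D4:**
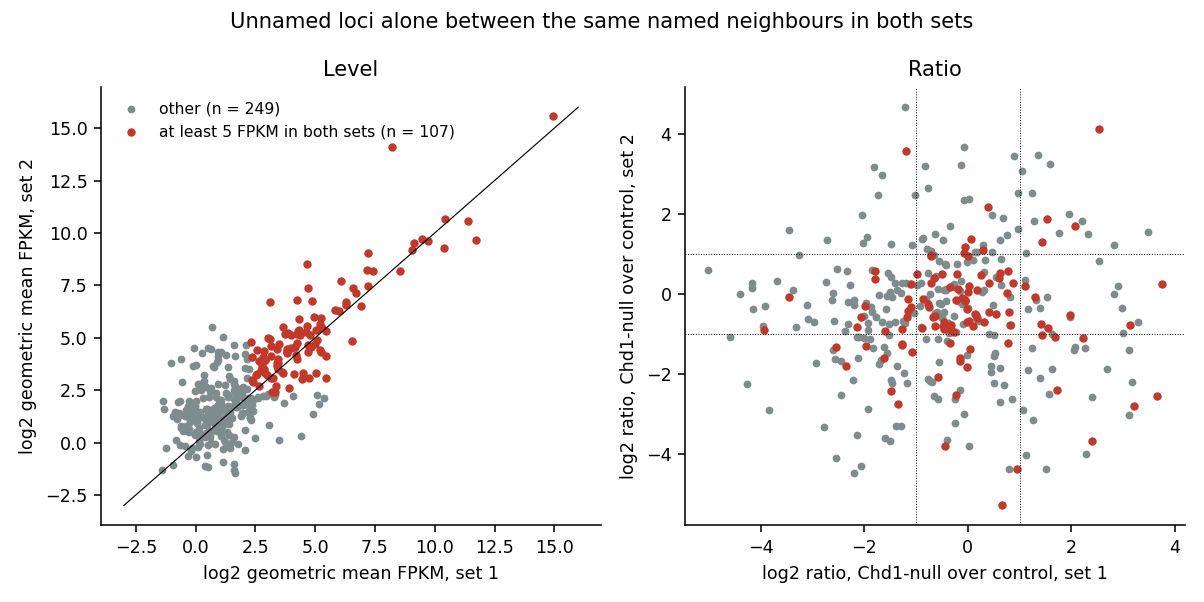
Unnamed loci alone between the same named neighbours in both sets, as log2 geometric mean FPKM (left) and log2 ratio of Chd1-null over control (right) of set 2 against set 1, with the 107 loci from 5 FPKM in both sets in red and the diagonal of equal level on the left. Levels rise together (r = 0.811 over all 356 loci), with medians of 2.94 FPKM in set 1 and 4.37 FPKM in set 2. Ratios form a cloud (r = 0.03), and dotted lines mark 2-fold.

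Unnamed loci were also crowded into certain stretches of identifiers. Alone between named rows lay 1053 unnamed loci in set 1 and 1162 in set 2, whereas 716 (18.2%) and 672 (17.4%) lay in runs of at least 10. The longest run, 45 loci in set 1 and 46 in set 2, lay between 5730507C01Rik and Asap2, an Arf GTPase-activating protein, in both. Loci in such runs had a lower median level than those alone (1.79 against 2.19 FPKM in set 1, and 2.30 against 3.75 in set 2, as geometric means). Their interquartile range of the log2 ratio was 1.68 against 2.45 in set 1 and 1.50 against 2.196 in set 2, so the loci lying alone were the more widely spread.

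Of 27 stretches with at least 10 unnamed loci between the same neighbours in both sets (408 and 428 loci), all 27 had a median ratio below control in set 1 and 18 in set 2. The medians ran from a log2 ratio of -2.70 to -0.07 in set 1 and from -1.81 to 1.48 in set 2. Set 1 had the lower median in 24 of 27, as it did over all unnamed loci (log2 ratios of -0.75 and -0.27). Taken locus by locus, 70.9% and 59.3% of unnamed loci and 82.7% and 72.9% of all loci were below control. Between 5730507C01Rik and Asap2 the median locus stood at 1.98 FPKM in the control and 0.770 in the other library of set 1, and 28 of 45 loci were at least 2-fold lower, against 27.9% of all loci and 42.6% of unnamed loci in that set. In set 2 it stood at 2.29 and 2.14 FPKM, and 8 of 46 were, against 13.3% of all loci and 29.4% of unnamed loci. Between Enc1, an actin-binding protein of the nervous system, and Ankra2 the medians were low in both sets, with log2 ratios of -1.45 over 16 loci and -1.81 over 17. Between Hist2h2bb, a histone gene, and Hfe2 the medians were -0.07 and -0.70 over 12 loci in each set.

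Another crowded stretch, chosen after its values were seen, lay in an imprinted domain. Meg3 and Rian are noncoding RNAs known to be expressed from the maternal chromosome, and Dio3 is a deiodinase gene at the far side of that domain. From Meg3 to Ppp2r5c, a regulatory subunit of phosphatase PP2A, there were 44 unnamed loci in set 1 and 48 in set 2. Meg3 itself stood at 32.8 and 31.1 FPKM in set 1 and at 51.4 and 56.8 in set 2 (control, then Chd1-null). Rian stood at 124 and 137 FPKM in set 1 and at 256 and 200.2 in set 2.

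The unnamed loci of this stretch were, in the middle of their distribution, about as high in Chd1-null as in control. Their control values ran from 0.171 FPKM (median 2.60) to 2782 in set 1 and from 0.322 (median 4.68) to 2457 in set 2. Their Chd1-null values ran from 0.154 (median 2.96) to 532 and from 0.723 (median 5.28) to 926. The median log2 ratio was 0.06 in set 1 (quartiles -0.80 and 0.84) and 0.27 in set 2 (quartiles -0.48 and 0.81), against -0.76 and -0.28 for all other unnamed loci. Higher than control were 23 of 44 and 27 of 48, and below it 21 and 21. Below control were 82.7% and 72.9% of all loci and 70.9% and 59.3% of unnamed loci. At least 2-fold lower were 9 (20.5%) and 4 (8.33%), against 27.9% and 13.3% of all loci and 42.6% and 29.4% of unnamed loci. At least 2-fold higher were 8 (18.2%) and 11 (22.9%), against 4.64% and 6.41% of all loci and 16.3% and 17.1% of unnamed loci.

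The highest unnamed locus of the stretch went the other way. It was the last row before Ppp2r5c in both sets, with 2782 and 2457 FPKM in the controls and 532 and 926 in the Chd1-null libraries. Both controls lay above both Chd1-null values, with ratios of 0.191 and 0.377. Without this locus, the unnamed loci of the stretch summed to 209.9 and 356 FPKM in the controls and 218 and 363 in the Chd1-null libraries.

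**Figure D5:**
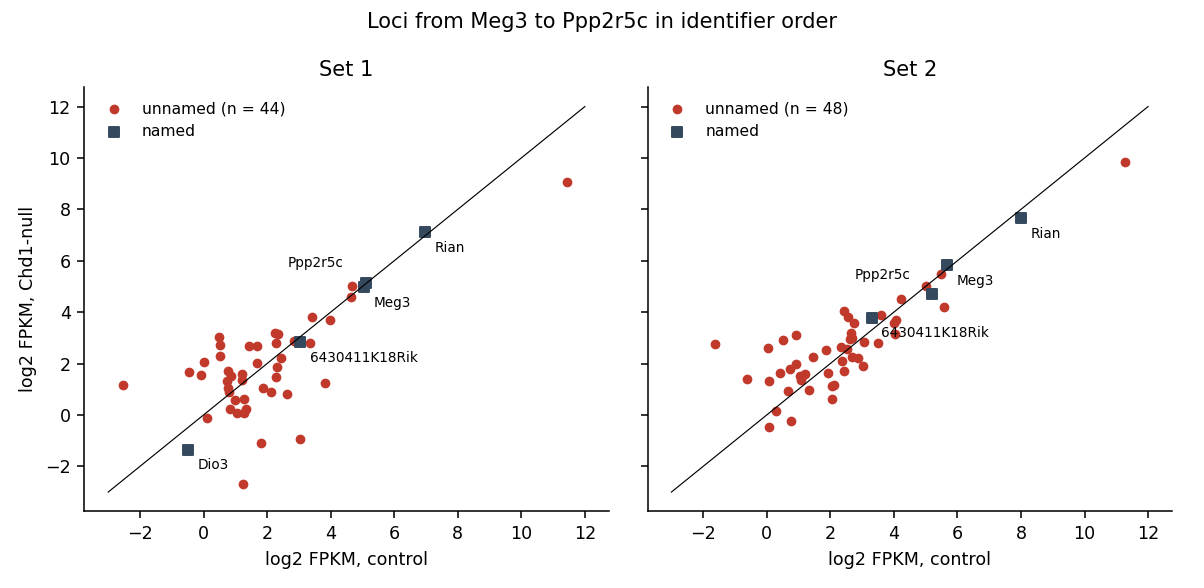
Log2 FPKM in Chd1-null (vertical) against control (horizontal) for the unnamed loci (red) and named loci (dark squares) from Meg3 to Ppp2r5c in identifier order, for set 1 and set 2, with the diagonal of equal value. Most unnamed loci scatter about the diagonal, while the highest lies below it in both sets (2782 against 532 FPKM and 2457 against 926 FPKM).

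The ratio of an unnamed locus had little relation to that of its named neighbour. Over 3751 unnamed loci with a named single-gene locus before them in set 1, the log2 ratios had r = 0.05, and over 3679 in set 2 r = -0.01. With the named locus after them, r was 0.03 in both sets (3789 and 3735 loci). Named loci and the named locus before them had r = 0.02 and r = 0.01. These are descriptions over loci of the same pair of libraries.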

How the data were processed

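Per the submitters' processing notes, the tools were TopHat2 2.0.10, TopHat, Cufflinks 2.2.0 and Cuffdiff, with mouse build mm9; their roles, the annotation and the use of the ERCC transcripts in scaling are stated in none of the sources read here. The deposited values were taken as FPKM, since the file headers name no unit. The authors' deposited ratio of Chd1-null over control equalled the quotient of the FPKM columns beside it within a relative difference of 4.97e-06, and the log2 of that quotient was used with no pseudocount. The lowest deposited value was 0.100 in every library, so loci below it were not analysed here. The lowest identifier number was 93 in both tables. Depth is unknown.

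Members and lists were chosen with earlier results of these data known. Named loci with repeated or several symbols were left out of the named class. Unnamed loci have 1 library per group and set, so results are descriptions per set with a mean ± SD over the 2 sets. The sets may be separate lines, which the labels do not say, so the SD may be partly technical. The script for the level-matched median and interquartile range was tested on simulated data; the shares past 2-fold were not simulated. By the naming rule, loci given by identifier were the highest and lowest ratio per set from 5 FPKM; the 5 highest per set are given by their neighbours, with 8 named yardsticks. Of 12311 and 12767 named loci, 11685 and 12129 matched GENCODE M21. Python 3.11.15, numpy 2.4.6, pandas 2.3.3 and matplotlib 3.10.9 were used.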

Additional observations from a re-analysis of the deposited data

How the results depend on the processing

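Values here are means of the 2 sets, with log2 values for medians and interquartile ranges and percentage points for level-matched shares. Of 80 alternatives, 52 moved a result by less than 1 SD, 25 by more, and 3 reversed a sign. The 52 include the replicate block of both per-library measures, given below, where the mean is unchanged by construction. The 3 reversals were in the level-matched median difference (-0.00), which was 0.08001 with control as level axis, 0.0189 from a geometric mean of 1 FPKM and 0.0313 with at least 1 FPKM in both libraries; leaving out 1 set gave -0.0689 to 0.0609. The level-matched excess in interquartile range (0.98) was 0.77 and 0.78 with control or Chd1-null as axis, 0.69 with a pseudocount of 1, 0.80 with 1 FPKM in both libraries and 1.27 from 5 FPKM. The excess of 2-fold higher loci (14.9) was 13.8 with Chd1-null as axis, 13.4 against clone-style symbols, 9.82 with a pseudocount of 1, 14.0 from 1 FPKM, 11.6 with 1 FPKM in both libraries and 13.9 from 5 FPKM; that of 2-fold lower loci (12.7) was 22.9 from 5 FPKM. The unmatched share of 2-fold higher loci (16.7%) was 16.04% and 10.1% with pseudocounts of 0.1 and 1, 15.1% and 13.7% from 1 and 5 FPKM, 11.998% with 1 FPKM in both libraries, 22.6% scaled to library totals and 22.0% centred on named loci. The share of 2-fold lower loci (36.0%) was 24.5% with a pseudocount of 1 and 25.5% with 1 FPKM in both libraries. The median log2 ratio (-0.51) was -0.11 scaled to totals and -0.10 centred on named loci. Without the 10 highest unnamed loci, their share of the sum was 11.2% in controls and 10.2% in Chd1-null. The cause of these shifts was not tested. The settings of 5 FPKM, of 1 FPKM in both libraries for ratios, of the 10 highest loci and of neighbours on 1 strand were added after the data were seen. Ratios were taken within a set and so are paired by construction. For the per-library measures, the Chd1-null minus control difference in the unnamed share of the sum was -1.11 percentage points, with an SD of 0.171 over the 2 sets with the replicate block (the set number, added after the data were seen) against 8.51 within groups without it. That in the ratio of unnamed to named median level was -0.0228, with an SD of 0.000686 against 0.0947. Paired over 2 sets, an exact two-sided test that flips signs cannot go below p = 0.5. The level-matched excess of 2-fold lower loci in set 1 alone ran from 1.06 to 14.6 points over the alternatives.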
